A study of Mus musculus with 6 samples.

Results

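The calls described here are single base changes that the somatic caller VarScan2 listed for mouse bone marrow and for which the ear of the same animal had no variant read. They were chosen from the deposited VarScan2 lists as the rows with at least 1 variant read in marrow and 0 in ear. This rule kept 575 of 3142 rows. In animal 54 it kept 127 calls, in animal 108 it kept 307 and in animal 136 it kept 141. VarScan2 marks each row as somatic or as loss of heterozygosity, and all 575 calls were marked somatic. They made up 21.3% of the 2695 somatic calls, with 15.8%, 21.5% and 30.3% in animals 54, 108 and 136. Since marrow and ear reads chose these calls, their variant fractions in the tissues are a description and were not tested.

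Whole bone marrow and ear had been taken from 3 mice on the C57BL/6 strain, giving 6 exome libraries. Every animal carried the Srsf2 P95H allele, which changes an amino acid of a splicing factor, and had received tamoxifen in vivo. Tissue was collected 50 to 60 weeks after tamoxifen, when the animals had become moribund. The sample labels give the inducible Cre recombinase R26CreERT2, driven from the widely expressed Rosa26 locus, for all 3 animals, while the series' design text gives 1 of them as hScl-CreERT with R26eYFP without saying which. Animals 54 and 108 were male and animal 136 was female. Marrow and ear share genotype and treatment, and neither untreated nor wild-type animals are among these samples. The labels give exon capture with a 50 Mb mouse kit and a mean depth of 100 reads. Exome DNA gives no expression, so the labelled tissues could not be checked against marker genes.

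A somatic change arises in 1 cell after fertilisation and is passed to the descendants of that cell, so in a tissue of many clones it is found in part of the reads. Blood-forming stem cells gather such changes with age, and a stem cell whose progeny expand raises the fraction of all the changes that it carries. Ear tissue of the same animal serves as the inherited background, although it holds some blood cells.

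Sequences are printed below, as examples, for some of the calls that lie near a RefSeq gene start. 10 calls lay in the window from 250 bases before to 50 bases after the start of 7 genes, against 44 of the 2120 other somatic calls. The deposited reference base equalled the RefSeq base (GRCm38.p6) at all 10. Each line below gives the gene's strand 5′ to 3′ around the call, with the changed base in capitals. The calls near the starts of Pramel27, a T to C change, and Mtus2 are not printed. The printed examples include no C to T or T to C change, so they do not represent all kinds of change among the calls.

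Stam2 reference, chr2:52742264-52742292, minus strand: cgtgcggccccaccGgtggggctggagcc

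Stam2 marrow variant: cgtgcggccccaccTgtggggctggagcc

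Mtnr1a reference, chr8:45069079-45069107, plus strand: aaggatgcaaagtaGacgcgggagggcca

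Mtnr1a marrow variant: aaggatgcaaagtaTacgcgggagggcca

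Cacfd1 reference, chr2:27009864-27009892, plus strand: tccccccgccccccGgctatggcctgcgg

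Cacfd1 marrow variant: tccccccgccccccCgctatggcctgcgg

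Olfr56 reference, chr11:49134066-49134094, plus strand: atgaaatattttttGctgaattacaaagc

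Olfr56 marrow variant: atgaaatattttttTctgaattacaaagc

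Zfp456 reference, chr13:67375891-67375920, minus strand: cttcCactgtgGgttAccatccacaTaact

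Zfp456 marrow variant, 4 calls on 1 line: cttcAactgtgTgttCccatccacaAaact

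Stam2, an adaptor of endosomal sorting, is shown because the Strelka list of animal 54 also held the call. It lay 129 bases before the RefSeq start, and SnpEff placed it in the 5′ untranslated part of a transcript as a gained start codon. 5 of 9 marrow reads carried it, with 0 of 27 ear reads. The change makes no ATG in these 29 bases and makes 1 CTG. Mtnr1a, a melatonin receptor, had the change in 4 of 20 marrow reads of animal 54, 14 bases before its start. Cacfd1 had it in 5 of 10 marrow reads of animal 108, in a run of c, with 9 ear reads by VarScan2, all of the reference base. The all-variant list of that ear held the same Cacfd1 change in 3 of 12 reads. Olfr56, an odorant receptor gene, had it in 6 of 30 marrow reads of animal 136, next to a run of t, and the marrow list of animal 108 held it in 10 of 56. The 4 changes upstream of Zfp456, a zinc finger gene of a multigene family, lay within 30 bases, so they can be carried by the same reads.

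The calls rested on few reads. In marrow the median number of reads was 15, 19 and 16 in animals 54, 108 and 136, and in ear it was 24, 15 and 16. The other somatic calls, which had ear variant reads, had marrow medians of 39, 45 and 50 reads and ear medians of 87, 36 and 42. No tissue had fewer than 8 reads at any of the 575 calls or of the other somatic calls. The median variant count in marrow was 4, 6 and 5 reads, and 208 of the 575 calls had exactly 4, the lowest number found. By animal these were 94, 65 and 49. The lowest number among the other somatic calls was 4 as well.

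The marrow variant fraction had a median of 28.6%, 31.3% and 30.8% in animals 54, 108 and 136. The other somatic calls had medians of 28.6%, 32% and 27.8%, and their lowest fraction was also 20% in each animal. Among the calls without ear variant reads the lowest was 20% in each animal, and the highest were 55.6%, 75% and 58.8%. A fraction of at least 50% was found for 14, 47 and 9 calls, and one under 25% for 37, 76 and 42. At the median ear depth, 0 variant reads allow a fraction in ear of up to 12.5%, 20% and 18.8%, counting 3 reads as the limit. Only 23, 72 and 24 calls, 119 in all, had at least 20 reads in both tissues. Calls just outside the rule, with a single ear variant read, numbered 80, 250 and 80. Their marrow fractions had medians of 35.3%, 40% and 30.5%.

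**Figure D1:**
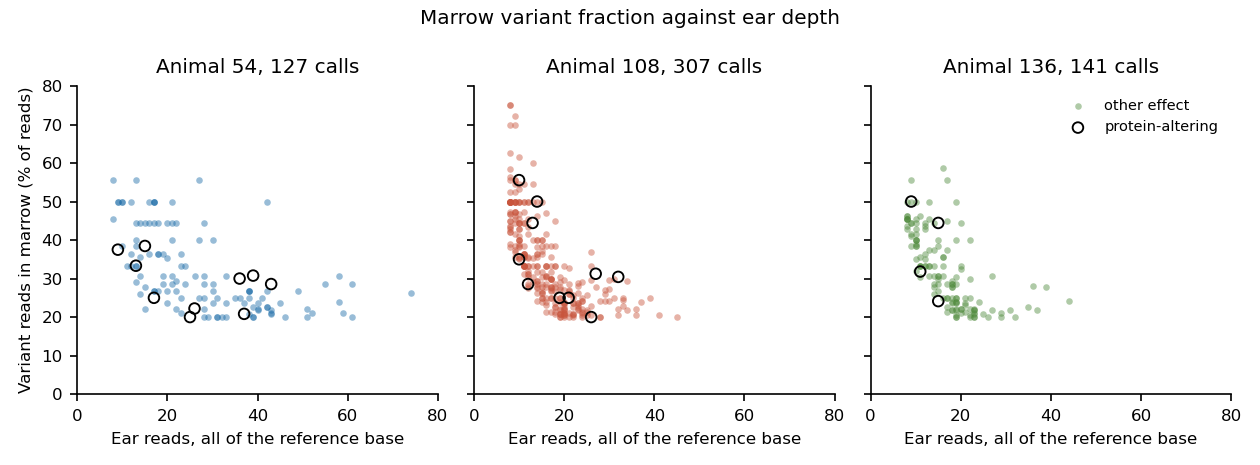
Each point is 1 call, with its ear reads on the x axis and the percentage of marrow reads with the variant on the y axis, in 1 panel per animal; black rings mark protein-altering calls. Fractions of 50% and above lie mostly at low ear depth, and no fraction is below 20%, which was also the lowest among the other somatic calls.

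By SnpEff annotation most of the calls lay outside coding sequence. Introns held 369, intergenic stretches 55, upstream flanks 42 and downstream flanks 24. Together these were 490 calls, or 85.2%, with 83.5%, 86.3% and 84.4% in animals 54, 108 and 136. Intron calls lay a median of 161.5, 150.5 and 153 bases from the nearest exon, and 226 of them (61.2%) lay within 200 bases. Untranslated parts held 22 calls, 4 at the 5′ and 18 at the 3′ side, and exons of non-coding transcripts held 20. Synonymous changes numbered 8 and splice region changes 11. The calls named 109 genes in animal 54, 234 in animal 108 and 115 in animal 136. Apart from protein-altering changes, such counts were not made for the other somatic calls, so they are a description only.

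24 calls changed a protein: 21 missense changes and 3 at splice acceptors. There were 10 each in animals 54 and 108 and 4 in animal 136. They were 7.87%, 3.26% and 2.84% of the calls, against 7.68%, 4.74% and 4.92% of the other somatic calls of the same animals. The share differed by -1.13 ± 1.18 percentage points (SD, n = 3 animals), which is within the spread between animals (two-sided exact sign-flip permutation test with animals as pairs, p = 0.5, adjusted p = 0.556 over 10 shares). With 3 animals this exact test cannot go below p = 0.25. Leaving out 1 animal in turn gave -1.78 to -0.645 percentage points, calls with at least 5 marrow variant reads gave -0.282 and those with a deposited somatic p-value under 0.01 gave -3.32.

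The 3 splice acceptor calls each had 0 ear reads with the variant. Eif2s3x encodes the X-linked gamma subunit of eIF2, which brings the initiator tRNA to the ribosome. Its call c.868-1G>T in animal 54, at the last base of intron 8 of 11 (GRCm38 X:94199859), was in 4 of 16 marrow reads (25%, 95% Clopper-Pearson interval 7.27 to 52.4%) and 0 of 17 ear reads. Ctnnal1 encodes alpha-catulin, a relative of alpha-catenin. Its call c.329-2A>T in animal 108 (4:56844636, intron 2 of 18) was in 7 of 23 marrow reads (30.4%, interval 13.2 to 52.9%) and 0 of 32 ear reads. All 7 variant reads lay on the minus strand, while the reference reads were 11 plus and 5 minus (Fisher's exact test, adjusted p = 0.0271). Myo3a encodes a motor protein of inner ear hair cells. Its call c.4309-2A>T in animal 108 (2:22579711, intron 29 of 33) was in 7 of 20 marrow reads (35%) and 0 of 10 ear reads. The all-variant list of the ear of animal 136 held the same Myo3a change in 3 of 7 reads.

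Among the missense calls, 3 had at least 5 marrow variant reads and at least 20 ear reads. Adamts17, a secreted metalloprotease, had p.Cys841Trp in 5 of 24 marrow reads of animal 54 and 0 of 37 ear reads (7:67075455, exon 18 of 23). 1700028P14Rik had p.Phe228Leu in 9 of 30 marrow reads and 0 of 36 ear reads of animal 54 (19:23558860, exon 6 of 6). Gm10717 had p.His101Tyr in 5 of 16 marrow reads and 0 of 27 ear reads of animal 108 (9:3029499, exon 2 of 5). The all-variant list of the ear of animal 54 held the 1700028P14Rik change in 30 of 70 reads, and Gm10717 belongs to a group of near-identical predicted genes at the start of chromosome 9.

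That chromosome 9 group held 5 of the 24 protein-altering calls, in all 3 animals. Gm10717 p.Tyr190Phe was in 12 of 32 marrow reads of animal 54, with 9 ear reads. Gm10715 p.Lys216Asn was in 4 of 8 marrow reads of animal 108, with 14 ear reads. In animal 136, Gm10719 p.Ser152Trp was in 7 of 29 reads and p.Leu214Met in 7 of 22. The first 4 Mb of chromosome 9 held 4, 3 and 3 of all calls, and reads from near-identical copies cannot be assigned with certainty.

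The remaining missense calls are named here after their values were seen. In animal 54 they lay in Kif21b, a kinesin (p.His28Gln, 4 of 20 marrow reads, 25 ear reads), and in Bub1b, the spindle checkpoint kinase BUBR1 (p.Ser325Leu, 4 of 18, 26 ear reads). Zfp59 (p.His358Tyr, 4 of 14 and 43 ear reads), the cytokine gene Ctf1 (p.Leu66Gln, 4 of 12 and 13 ear reads) and Reps2 (p.Ala495Ser, 5 of 13 and 15 ear reads) completed that animal. In animal 108 the formin gene Daam2 had p.Leu547Pro in 4 of 20 marrow reads with 26 ear reads, and the phosphodiesterase gene Pde8b had p.Arg27His in 4 of 16 with 21 ear reads. In both, the strands of variant and reference reads were unequal (Fisher's exact test, adjusted p = 0.00758 and 0.0452). Fam71b p.Ala305Thr was in 6 of 21 marrow reads, 2 plus and 4 minus, with 12 ear reads. Gm9867 p.Leu89Pro and the neurturin gene Nrtn, p.Glu121Asp, rested on 9 marrow reads each. Ear lists of another animal held the Reps2 change in 3 of 9 reads (animal 136) and the Gm9867 change in 8 of 13 (animal 54). Animal 136 had Etohi1 p.Lys190Asn in 4 of 9 reads and Loxl1, a lysyl oxidase, p.Gln273Pro in 4 of 8.

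**Figure D2:**
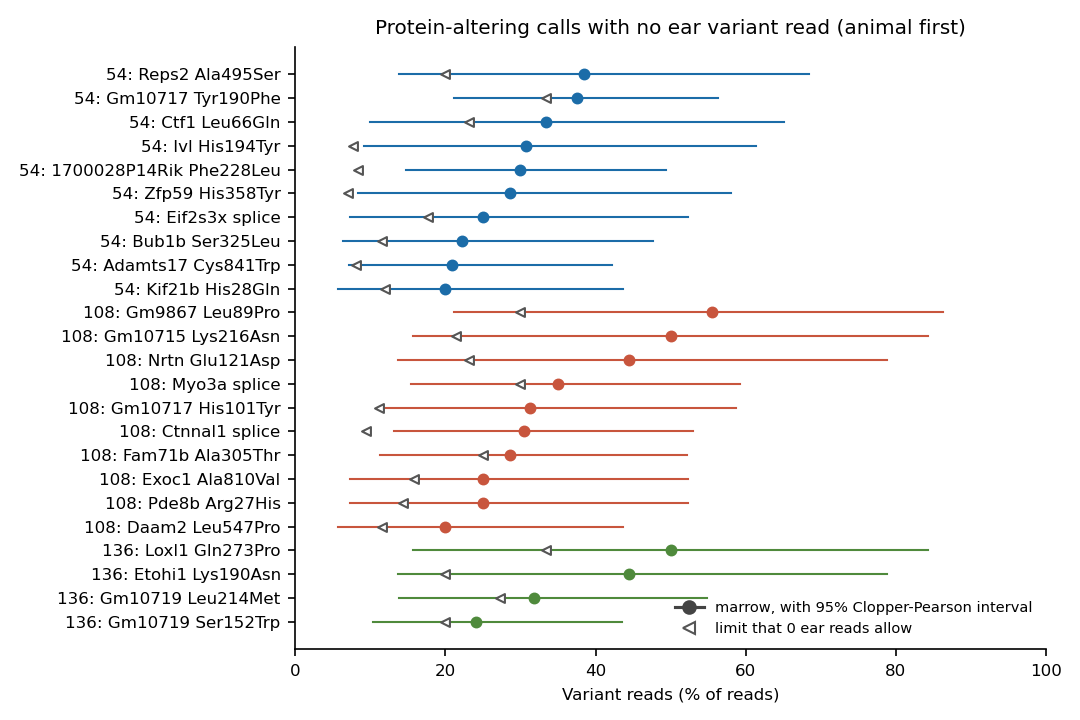
The 24 protein-altering calls, named with their animal; points give the percentage of marrow reads with the variant, bars its 95% Clopper-Pearson interval, and open triangles the fraction that 0 ear variant reads allow (3 reads of the ear depth). The triangle lies within the marrow interval for 20 calls and below it for 4: Ivl, Zfp59, 1700028P14Rik and Ctnnal1.

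Strelka, a second somatic caller whose deposited lists give no read counts, shared 10 of the 575 calls: 6, 3 and 1 in animals 54, 108 and 136. Of the 2120 other somatic calls it shared 1. The shares were 4.72%, 0.977% and 0.709%, against 0%, 0.0894% and 0%. Strelka scores marrow against the same ear, and the calls were chosen for their ear reads, so this difference is a description and no test of it is given.

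2 of the 10 shared calls were missense. Ivl encodes involucrin, a protein of the skin cell envelope, and its p.His194Tyr (3:92572177, exon 2 of 2) was in 4 of 13 marrow reads of animal 54 and 0 of 39 ear reads. Exoc1 encodes a subunit of the exocyst, which tethers secretory vesicles, and its p.Ala810Val (5:76568037, exon 19 of 20) was in 4 of 16 marrow reads of animal 108 and 0 of 19 ear reads. Besides Stam2, animal 54 had shared intron calls in Zranb2 (4 of 9 marrow reads, 18 ear reads), Azi1 (4 of 15, 49 ear reads), Tfcp2 (4 of 15, 42 ear reads) and Wdr13 (4 of 8, 21 ear reads). The shared call with the most reads was in an intron of the non-coding Gm13106 in animal 108, in 13 of 54 marrow reads (24.1%, interval 13.5 to 37.6%) and 0 of 30 ear reads. Its variant reads were 12 plus and 1 minus, and its reference reads 36 plus and 5 minus. Gm12132 in animal 108 had 5 of 10 marrow reads, and an intergenic call on chromosome 9 of animal 136, between Rpl7a-ps10 and Trim42, had 5 of 25 with 26 ear reads.

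Genes known from myeloid neoplasms held few of the calls, and no protein-altering one. Of 38 such genes, 2 had a call. Ptpn11 encodes SHP2, a phosphatase of growth factor signalling. Its intron call c.1392-174T>C was in 7 of 25 marrow reads of animal 108 and 0 of 23 ear reads, with all 7 variant reads on the minus strand along with 15 of 18 reference reads. Wt1 encodes a transcription factor, and its intron call c.1099-121G>T was in 5 of 11 marrow reads of animal 136 and 0 of 8 ear reads. The ear lists of both other animals held the Wt1 change, in 10 of 32 reads in animal 54 and 4 of 15 in animal 108.

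Of 18 splicing factor genes, only Srsf6, which encodes an SR protein related to Srsf2, had a call. Its intron change c.591-151A>T was in 5 of 17 marrow reads of animal 136 and 0 of 18 ear reads. Of 28 genes that regulate blood formation, 0 had a call. The 2120 other somatic calls hit 0 genes of the splicing factor list and 0 of the blood formation list.

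The highest marrow fractions among calls with at least 20 reads in both tissues stood mostly in introns and untranslated parts. In animal 54 they were 1700028P14Rik (30%), an intron of the muscle protein gene Ttn (5 of 20 marrow reads, 35 ear reads), and Gm17404, Npcd and Krt79 with 22.7 to 23.8%. In animal 108 they were an intron of the metalloprotease gene Adam19 (12 of 36), Gm16440 (16 of 49), Ctnnal1, Gm8180 (9 of 30) and the 3′ untranslated part of Mroh2a (11 of 37). In animal 136 they were Gm14435 (14 of 43), Lrfn5 (6 of 20), the ubiquitin ligase gene Wwp2 (9 of 32), the synonymous Espn p.Pro445Pro (10 of 36) and Gm16026 (7 of 29). Several of these were also listed elsewhere. The ear list of animal 108 itself held the Adam19 change in 22 of 48 reads, and that of animal 136 held it in 27 of 47. The ear lists of animals 54 and 136 held the Gm16440 change in 28 of 56 and 8 of 27 reads and the Mroh2a change in 5 of 30 and 4 of 25. The Npcd change was in 6 of 23 ear reads of animal 136. The ear lists of animals 54 and 108 held the Lrfn5 change in 14 of 40 and 7 of 28 reads, and the ear list of animal 108 held the Wwp2 change in 13 of 46 and the Espn change in 10 of 38.

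The deposited SAMtools list of all variants of each sample gives a second read count. The list of the own marrow held 356 of the 575 calls, 63.8%, 61.6% and 61% in animals 54, 108 and 136, against 31.6%, 60% and 43.1% of the other somatic calls. The difference was 17.2 ± 15.3 percentage points, higher in 3 of 3 animals (exact paired sign-flip permutation test, p = 0.25, adjusted p = 0.313), and 9.73 percentage points without animal 54. At these 356 calls the list gave more variant reads than VarScan2 at 132, the same number at 224 and fewer at 0. Reference reads were within 2 of each other at 347. Among the other somatic calls in the marrow lists, the list gave more variant reads than VarScan2 at 651 of 1025. Higher list counts were therefore not particular to the calls without ear variant reads.

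The list of the own ear held 23 of the 575 calls (4%): 6, 12 and 5 in animals 54, 108 and 136. There the ear had 3 to 30 variant reads where VarScan2 gave 0, and ear variant fractions of 16.7 to 45.8%. Ear reference reads were within 2 of each other in both files at 22 of the 23. At 20 of the 23, the listed ear variant reads were on 1 strand only. In the lists, the ear fraction was below the marrow fraction at 21 of the 23. 1700028P14Rik had 31 of 54 marrow and 30 of 70 ear reads. The paired intron calls of Adam19 in animal 108 had 22 of 48 and 24 of 53 ear reads. Upf3b, a factor of nonsense-mediated decay, had 11 of 24 ear reads in animal 54, and Tfeb, a transcription factor for lysosome genes, had 20 of 36 marrow and 4 of 21 ear reads in animal 136. The other 552 calls have no entry in the own ear list, which gives no read count at sites that it does not call.

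**Figure D3:**
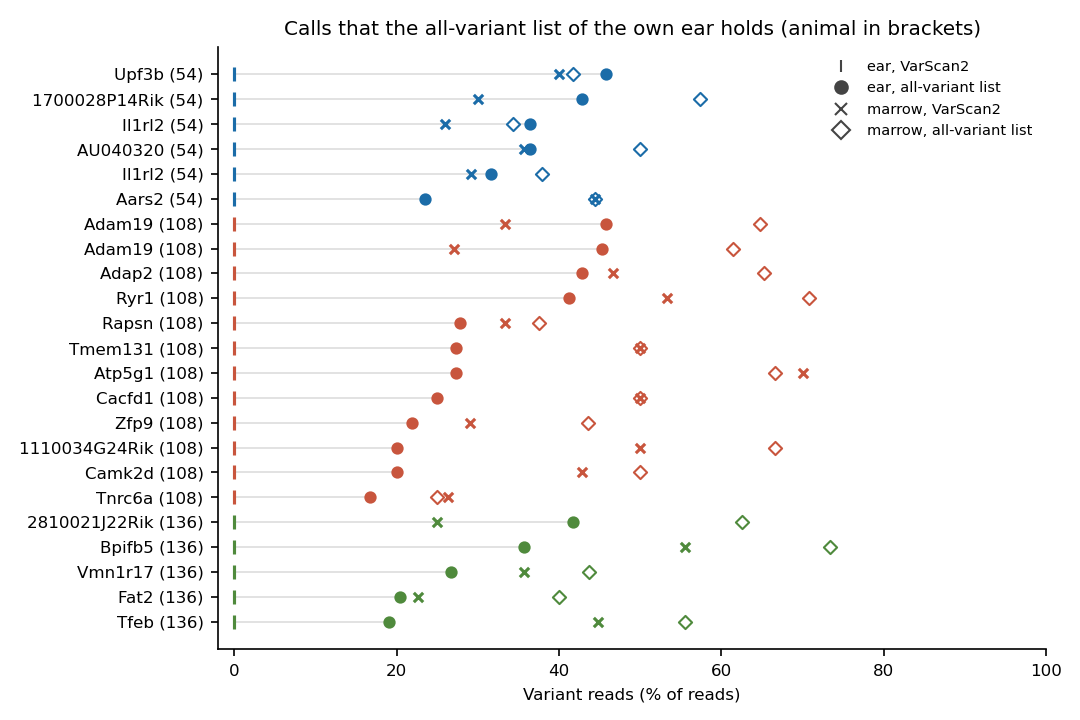
The 23 calls that the all-variant list of the own ear held, by gene with the animal in brackets; the x axis is the percentage of reads with the variant. Vertical ticks mark 0% in ear by VarScan2, filled circles the ear fraction in the all-variant list (16.7 to 45.8%), crosses marrow by VarScan2 and open diamonds marrow in the list.

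Lists of another animal held 130 of the calls at the same position with the same change: 14 in animal 54 (11%), 76 in animal 108 (24.8%) and 40 in animal 136 (28.4%). For the other somatic calls the shares were 16.8%, 29% and 38.8%, so the share was lower in 3 of 3 animals, by a mean difference of -6.81 ± 3.21 percentage points (exact paired sign-flip permutation test, p = 0.25, adjusted p = 0.313). The difference was -1.13 percentage points with at least 5 marrow variant reads, and it turned to 0.174 percentage points among calls with a deposited somatic p-value under 0.01. An ear of another animal held 108 of the calls, with variant fractions of 12.7 to 81.3% and a median of 31.3% over 139 entries. Both other animals held 57. Neither the own ear nor another animal had a record of 437 calls, 110, 226 and 101 by animal.

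As VarScan2 calls without ear variant reads, the animals shared a single position. It lay in an intron of the non-coding Gm26573 (4:146474812), with 5 of 19 marrow reads in animal 108 and 5 of 13 in animal 136, and with 14 and 9 ear reads.

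Strand was not used in choosing the calls. All marrow variant reads lay on 1 strand at 88.2%, 87.9% and 90.1% of the calls of animals 54, 108 and 136, a mean of 88.7 ± 1.16%. At the other somatic calls it was 60.6%, 65.6% and 61.8%, a mean of 62.7 ± 2.6%. The animals' ranges did not overlap, and the difference of 26.1 ± 3.21 percentage points was positive in 3 of 3 animals (exact paired sign-flip permutation test, p = 0.25, adjusted p = 0.313). Read number moves with this result: the median marrow depth was 15 to 19 reads at these calls and 39 to 50 at the others. With at least 20 reads in both tissues the difference was 32.6 percentage points, and with at least 5 marrow variant reads it was 20 percentage points. Neither cut matches the calls by number of variant reads. Its median was 4, 6 and 5 in animals 54, 108 and 136, against 12, 16 and 15 at the other somatic calls.

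The reference reads often lay on 1 strand as well. Reference reads were on a single strand at 266 of the 575 calls, and at 235 calls variant and reference reads were all on the same strand. At 259 calls the variant was on 1 strand and the reference on both. Reference reads on a single strand were not counted for the other somatic calls, so these values are a description only. Variant reads on both strands were found at 66 calls, 15, 37 and 14 by animal.

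Fisher's exact test of variant against reference strands in marrow, adjusted over all somatic calls of the animal, called 2 of 127, 18 of 307 and 10 of 141. The background over all somatic calls was 11.2%, 18.6% and 14.4% in animals 54, 108 and 136, and 15.7% over all 2695. The calls without ear variant reads, at 1.57%, 5.86% and 7.09%, lay below it in each animal. With 4 or 5 variant reads the test can call only a strongly unequal split. The 30 called included Ctnnal1, Daam2, Pde8b, Wwp2, Tfeb and the Gm2420 call with the largest fraction (Fisher's exact test, adjusted p = 7.8e-05). Without animal 108 there were 12.

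**Figure D4:**
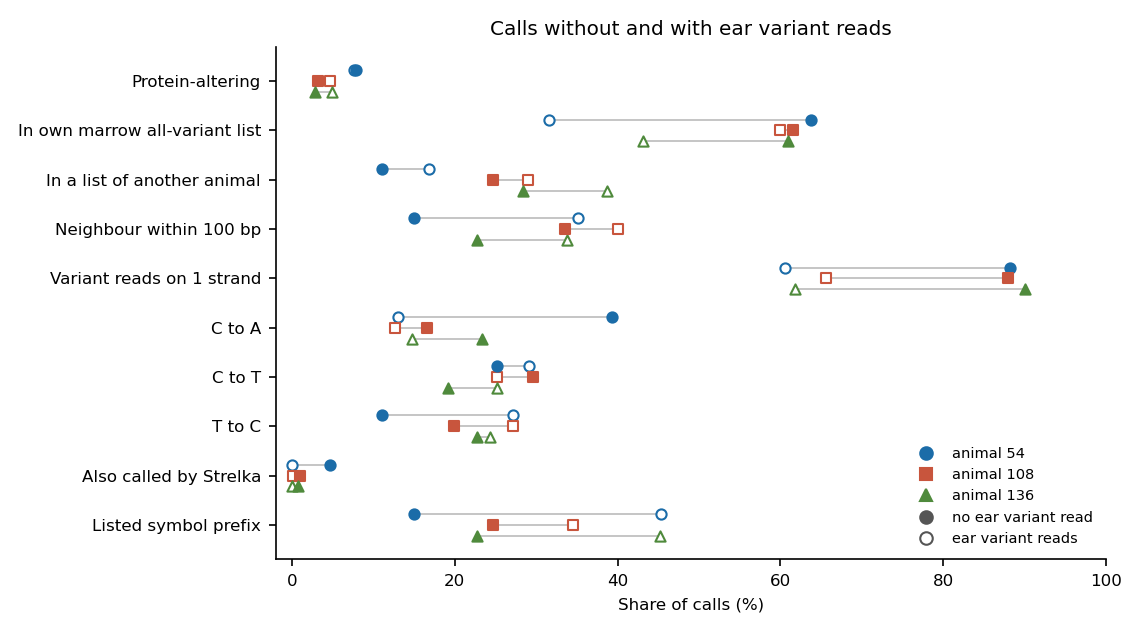
Shares of calls in percent for 10 properties, with a marker shape per animal; filled markers are the calls with no ear variant read and open markers the other somatic calls of that animal, joined by a line. The strand share stands at 87.9 to 90.1% against 60.6 to 65.6%, and the protein-altering shares lie close together.

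C to A changes (G to T on the other strand) were the most common kind in animals 54 and 136. In animal 136 the lead was narrow, with 33 C to A and 32 T to C changes. They were 50 of 127 calls in animal 54 (39.4%), 51 of 307 in animal 108 (16.6%) and 33 of 141 in animal 136 (23.4%), against 13%, 12.6% and 14.8% of the other somatic calls. The difference was 13 ± 11.8 percentage points, positive in 3 of 3 animals and largest in animal 54 (exact paired sign-flip permutation test, p = 0.25, adjusted p = 0.313). Without animal 54 it was 6.32 percentage points. The Eif2s3x, Kif21b, Reps2, Stam2, Zranb2 and Azi1 calls of animal 54 were of this kind. Low read numbers went with this kind in animals 54 and 136 but not in animal 108. In animal 54, 43 of the 50 had exactly 4 variant reads, against 51 of the 77 other changes. In animal 108 it was 11 of 51 against 54 of 256, and in animal 136 it was 16 of 33 against 33 of 108. Among calls with at least 5 marrow variant reads, the C to A difference was 5.68 percentage points, and with at least 20 reads in both tissues it was 14.8.

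C to T changes were 25.2%, 29.6% and 19.1%, against 29.1%, 25.2% and 25.2%, a difference of -1.86 ± 5.54 percentage points that changed sign between animals (exact paired sign-flip permutation test, p = 0.75, adjusted p = 0.75). Without animal 136 it was 0.258. T to C changes were 11%, 19.9% and 22.7%, against 27.2%, 27.1% and 24.3%, lower in 3 of 3 animals by a mean difference of -8.33 ± 7.33 percentage points (exact permutation p = 0.25, adjusted p = 0.313), or -4.42 without animal 54.

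**Figure D5:**
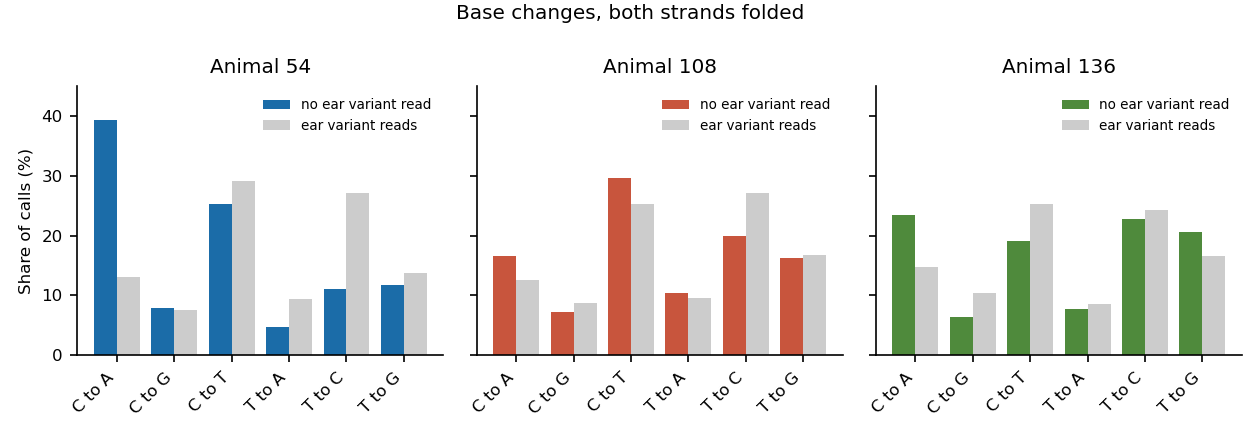
Percentage of calls with each kind of base change, complementary changes counted together, in 1 panel per animal; coloured bars are the calls with no ear variant read and grey bars the other somatic calls. C to A stands at 39.4% in animal 54 against 13%, and the gap is smaller in animals 108 and 136.

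Some calls stood in clusters. A neighbouring call within 100 bases was found for 15%, 33.6% and 22.7% of the calls, against 35.2%, 40.1% and 33.8% of the other somatic calls, lower in 3 of 3 animals by a mean difference of -12.6 ± 6.95 percentage points (exact paired sign-flip permutation test, p = 0.25, adjusted p = 0.313). With at least 5 marrow variant reads it was -7.26. Joined within 1 kb, the 575 calls formed 512 loci, of which 54 held more than 1. Calls of 1 locus can lie on the same reads and are not independent.

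Animal 108 had the 3 largest loci, with 4 calls each. Upstream of Gm2420 (5:32721628 to 32721682) the marrow had 9 of 42, 10 of 40, 10 of 36 and 24 of 51 variant reads, with 15 to 18 ear reads. The calls upstream of Zfp456 are those printed above, at 21.7 to 30% of 20 to 23 marrow reads. In an intron of Obfc1, which encodes a subunit of the telomere-binding CST complex, the marrow had 9 of 15, 11 of 21, 9 of 19 and 9 of 18 variant reads, and the ear 13, 9, 9 and 8 reference reads (19:47528916 to 47528944). No list of the own ear or of another animal held the Obfc1 changes. Of the Gm2420 changes, the ear list of animal 136 held 3, in 6 of 14, 5 of 13 and 5 of 14 reads, and the ear list of animal 54 held the last of them in 24 of 66. The ear list of animal 54 also held 1 of the Zfp456 changes, in 3 of 11 reads. Animal 136 had 3 calls in the 3′ untranslated part of Gm14440, at 20 to 22.2% of 35 to 39 reads. In animal 54 the largest loci were pairs, among them neighbouring bases in introns of Col3a1, a fibrillar collagen gene, and of Tnrc6c, a gene of microRNA silencing.

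Gene symbols with a listed prefix, most of them of gene families, were counted as a further share. The prefixes were Olfr, Vmn, Zfp, Krt, Muc, Klr, Cyp, Ugt, Serpina, Skint, Pcdh, Hist, Rp, Mup, H2-, those of antigen receptor segments, and Gm followed by digits. The last marks predicted genes, which need not belong to a family, and families with other names, such as Speer, were not counted. These symbols held 15%, 24.8% and 22.7% of the calls and 45.3%, 34.5% and 45.2% of the other somatic calls. The difference was -20.9 ± 10.4 percentage points, with the same direction in 3 of 3 animals (exact paired sign-flip permutation test, p = 0.25, adjusted p = 0.313). Gm symbols alone held 11%, 18.2% and 19.9% of the calls against 18.5%, 22.5% and 29.5%. With Gm symbols left out, the other prefixes held 3.94%, 6.51% and 2.84% against 26.9%, 12.1% and 15.7%, a difference of -13.8 ± 8.73 percentage points (exact permutation p = 0.25).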

How the data were processed

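The authors' deposited VarScan2 tables give read counts per allele and strand for marrow and ear, and a somatic p-value. The columns named tumor and normal were read as marrow and ear. At sites also in the SAMtools list of that marrow, these columns were the closer match in 292 of 295, 779 of 860 and 211 of 226 sites in animals 54, 108 and 136. FastQC, SAMtools and Bowtie2 are named in the submitters' processing notes, with mm9 and GRCm38 as builds. The sources used here do not give VarScan2's filter settings. Coordinates follow GRCm38, as reference bases equalled RefSeq GRCm38.p6 promoter bases at 2721 of 2721 listed sites.

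From these files, the SnpEff annotations of each call were reduced to the one of highest impact, with HIGH or MODERATE taken as protein-altering and ties settled by place in the gene. Shares were compared per animal with exact paired sign-flip permutation tests, the animal being the pair, and Benjamini-Hochberg adjustment over 10 shares. The Strelka share counted among these 10. Strands were tested with Fisher's exact test over all somatic calls, a script tested on simulated data. The threshold was 0.05. Intervals are 95% Clopper-Pearson and, with limits at 0 (3 reads), cover only counting error, because no molecular identifiers tell reads of 1 molecule apart. Python 3.11.15, pandas 2.3.3 and SciPy 1.17.1 were used.

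Named were calls of HIGH impact, MODERATE calls with at least 5 marrow variant and 20 ear reads, calls shared with Strelka, calls in genes of the myeloid, splicing factor and blood formation lists, positions found in more than 1 animal, the 5 highest fractions with at least 20 reads in both tissues and the largest locus per animal. The calls and lists were chosen with earlier results of these data known. Insertions and deletions were not used.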

Additional observations from a re-analysis of the deposited data

How the results depend on the processing

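The mean number of calls per animal, 192 as chosen, was 39.7 with at least 20 reads in both tissues, 122 with at least 5 marrow variant reads, 52 with a deposited somatic p-value under 0.01 and 328 when 1 ear variant read was allowed. Calls with unequal strands numbered 30, 54 at an unadjusted p under 0.05, and 12 to 28 when 1 animal was left out. Of 73 alternatives of the 10 shares, 70 kept the direction. These 70 include all 7 of the Strelka share, which depends on the ear reads that chose the calls and so is no support. The share in lists of another animal turned to 0.174 percentage points at a somatic p under 0.01, and the C to T share to 0.341 there. Leaving out 1 animal gave -4.99 to 0.258 percentage points for C to T. The cause was not tested. With no replicate block, that is without pairing by animal, the exact permutation p was 0.1 to 0.7 over the 10 shares, where 0.1 is the smallest possible, for the same differences, such as 26.1 percentage points for variant reads on 1 strand. Leaving out calls in the own ear list or in a list of another animal, chosen after seeing the data, kept 437 of the 575 calls. Depths near 16 reads leave fractions at single calls known only to within their intervals, and ear fractions below about 12.5 to 20% undetected.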

Other observations

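Splice region calls outside the acceptor bases lay in genes of varied roles. In animal 108, Rapgef5, an exchange factor for small GTPases, had c.1577-8A>T in 8 of 39 marrow and 0 of 41 ear reads, and Rlbp1, a retinoid carrier of the eye, had c.525+6C>T in 4 of 14 marrow and 0 of 21 ear reads. Rtkn2 in animal 54 had c.305-8C>T in 6 of 17 marrow reads and N4bp2l2 in animal 136 had c.1527-8G>T in 6 of 23. No list of another animal held these 4 changes. Sugp1, a splicing factor with G-patch domains that was in none of the gene lists, had c.876-3C>T in 4 of 8 marrow reads of animal 54, and the ear lists of both other animals held it in 5 of 11 reads each.

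In 3′ untranslated parts, Faim2 of animal 108 had c.*13G>C in 10 of 46 marrow and 0 of 34 ear reads, Haus6 of animal 136 had c.*137C>T in 5 of 25 marrow and 0 of 23 ear reads, and Rad23b of animal 54 had c.*110A>G in 4 of 10 marrow and 0 of 21 ear reads. Hjurp, a chaperone of centromeric histone, had changes at adjacent bases in 8 of 38 and 8 of 39 marrow reads of animal 108. These genes were named after their values were seen.

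A narrower set was also chosen after seeing the data: at least 20 reads in both tissues, no neighbour within 100 bases, and no record in the own ear list or in another animal. It held 62 calls (17, 34 and 11 in animals 54, 108 and 136). The protein-altering ones were Kif21b and Adamts17 in animal 54 and Ctnnal1 and Daam2 in animal 108. Variant reads lay on both strands at 4 of the 62: an intron of Cryl1 in animal 54 (5 of 25 marrow and 0 of 61 ear reads), and Gm4245, a non-coding exon of Flg, and Gm13106 in animal 108.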
